A study of Mus musculus with 43 samples.

Results

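The 5 genes Mest, Nnat, Sfrp5, Bmp3 and Npr3 were followed in mouse inguinal white adipose tissue, the subcutaneous fat depot of the groin, as 5 of the 22622 gene identifiers in each of 5 expression tables. They were selected on their known link to fat expansion and with their differences between groups in these tables already seen, so those differences are given as values with errors and no p-value. All 5 passed the filter on low values (10 normalized counts) in each table. The 43 libraries fall into 9 groups. Wild-type (C57BL/6J) mice at P28, 28 days after birth, were housed at 22 C (n = 4) or 30 C (n = 4). Mice labelled TrkA-flox Th-cre, also at P28 and 22 C (n = 4), are compared with the same 4 wild-type libraries, which carry neither the floxed allele nor the Cre. Mice at P25 and 22 C carried Bcl6-flox alone (n = 7) or Bcl6-flox with Prx1-cre (n = 8), so both groups share the floxed allele. Adults of 9 weeks made up the remaining groups: both Bcl6 genotypes kept at 4 C, and C57BL/6J wild types kept at 22 C or at 4 C, with 4 libraries in each. Th-cre acts in cells that express tyrosine hydroxylase, which include sympathetic neurons, while Prx1-cre is driven in mesenchyme of the limb and elsewhere and so is not restricted to fat cells.

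White fat grows by enlarging its fat cells and by making new ones, and the 5 genes are known from studies of that growth or of signals that reach fat cells. Mest (mesoderm specific transcript) encodes a protein of the endoplasmic reticulum with an alpha/beta hydrolase fold, and its level in fat is known to vary widely between genetically identical mice and to go with fat mass expansion. Nnat (neuronatin) encodes a small membrane protein of the endoplasmic reticulum; Mest and Nnat are both imprinted genes, expressed from the paternal allele. Sfrp5 encodes a secreted protein that binds Wnt ligands, Bmp3 a secreted member of the bone morphogenetic protein family that can oppose other members, and Npr3 the natriuretic peptide clearance receptor, which takes up natriuretic peptides that otherwise act through the receptor encoded by Npr1.

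On mm10 (GRCm38), Mest (gene ID 17294) lies on chromosome 6 from 30733506 to 30748466 on the plus strand, and its 3′ end overlaps 913 bases of Copg2 on the minus strand. Nnat (gene ID 18111) lies on chromosome 2 from 157560078 to 157562525 on the plus strand. Of 6 annotated Blcap transcripts, 3 span Nnat on the opposite strand, and none has an exon that overlaps it, so Nnat sits in an intron of Blcap. Sfrp5 (gene ID 54612) lies on chromosome 19 from 42197971 to 42202252 on the minus strand, Bmp3 (gene ID 110075) on chromosome 5 from 98854415 to 98884053 on the plus strand, and Npr3 (gene ID 18162) on chromosome 15 from 11839896 to 11907837 on the minus strand.

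Sequences at an annotated start of 4 of the genes are shown because the Mest and Nnat windows differ from the Npr3 window in CpG content. CpG is the dinucleotide at which imprints are carried. Each is the RefSeq sequence on GRCm38.p6 from 250 bases before to 50 bases after an annotated start, printed 5′ to 3′ on the gene's strand, with CpG dinucleotides in capitals. Mest has further annotated starts, and the one shown is chr6:30737800-30738099 on the plus strand. The others are chr2:157559828-157560127 (plus strand) for Nnat, chr19:42202203-42202502 (minus strand) for Sfrp5 and chr15:11907322-11907621 (minus strand) for Npr3. The Npr3 window lies wholly inside the gene's RefSeq extent, which reaches 11907837, so it surrounds an inner start. CpGs at the outermost Npr3 start were not counted.
Mest: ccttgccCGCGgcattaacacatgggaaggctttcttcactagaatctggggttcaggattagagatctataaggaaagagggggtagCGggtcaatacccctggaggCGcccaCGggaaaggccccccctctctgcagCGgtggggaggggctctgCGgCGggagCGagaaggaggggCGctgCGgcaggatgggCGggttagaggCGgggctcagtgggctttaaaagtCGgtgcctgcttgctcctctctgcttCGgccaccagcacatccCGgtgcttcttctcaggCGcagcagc
Nnat: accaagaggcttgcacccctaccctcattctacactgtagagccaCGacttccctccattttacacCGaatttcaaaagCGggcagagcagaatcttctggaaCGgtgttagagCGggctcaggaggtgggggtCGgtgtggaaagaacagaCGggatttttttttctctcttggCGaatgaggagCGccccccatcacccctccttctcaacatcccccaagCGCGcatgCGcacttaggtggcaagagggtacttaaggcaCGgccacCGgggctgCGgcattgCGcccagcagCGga
Sfrp5: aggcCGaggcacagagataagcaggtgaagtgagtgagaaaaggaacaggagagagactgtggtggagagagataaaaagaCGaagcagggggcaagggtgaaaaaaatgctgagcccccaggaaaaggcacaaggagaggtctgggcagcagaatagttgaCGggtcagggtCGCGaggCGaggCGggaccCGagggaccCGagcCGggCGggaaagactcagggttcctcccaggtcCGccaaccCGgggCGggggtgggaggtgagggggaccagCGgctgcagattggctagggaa
Npr3: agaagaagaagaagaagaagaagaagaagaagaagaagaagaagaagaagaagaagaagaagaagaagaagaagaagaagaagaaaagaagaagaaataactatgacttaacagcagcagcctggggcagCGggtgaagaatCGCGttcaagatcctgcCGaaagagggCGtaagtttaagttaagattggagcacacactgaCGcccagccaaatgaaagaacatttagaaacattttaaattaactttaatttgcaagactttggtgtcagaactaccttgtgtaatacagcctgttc
The Mest and Nnat windows hold 17 CpGs each, the Sfrp5 window 15 and the Npr3 window 6, against a median of 7 over 32851 promoters of the same length. At 17, 70.3% of promoters have no more CpGs. A start of Mest farther upstream, at chr6:30733256-30733555, holds 8. The letters TTCNNNGAA, which read the same on both strands and are the core bound by STAT proteins and overlapped by Bcl6 sites, are in none of these windows and in 8.3% of all promoters.

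Library depth, estimated from the smallest step between values, was 3503000 to 6432000 reads at P28, 4995000 to 15780000 at P25, 16870000 to 30730000 in the 9-week Bcl6 libraries and 6268000 to 8861000 in the 9-week wild-type libraries, where the steps were less regular and the estimate is rougher. The tables were normalized separately, so levels are compared only within a table. The fat cell markers Adipoq, Plin1, Cidec, Lep and Lipe were expressed in every library, and none of these 5 passed the test in any comparison. Markers of other tissues varied widely between libraries. The summed level of skeletal muscle markers ran from 204.8 to 660000 over the 8 libraries of the 9-week Bcl6 table, with the highest in Bcl6-flox library 3. Skin and hair follicle markers summed to 3094 in TrkA-flox Th-cre library 3 and to at most 146.6 in the other libraries of that table. Xist, the RNA of the inactive X chromosome of females, split libraries into low and high. It was high in 2 of 4 wild-type libraries at P28 and 22 C, 3 of 4 at 30 C, 1 of 4 TrkA libraries, 3 of 7 and 4 of 8 libraries without and with Prx1-cre at P25, all 8 of the 9-week Bcl6 table, and 2 of 4 in each group of the 9-week temperature table. Bcl6 itself was higher, not lower, in the libraries labelled Prx1-cre, at 824.8 ± 340 against 2714 ± 584 normalized counts at P25 (SD, n = 7 and 8) and 1995 ± 392 against 11610 ± 2340 at 9 weeks (SD, n = 4 each). Such gene totals do not show which exons were read. RNA of whole tissue cannot tell fewer cells of a type from less RNA per cell.

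The plot of all libraries shows each gene's values by group. Groups did not overlap for 1 of the 5 genes at 30 C against 22 C (Nnat, higher), where 5.23% of 12283 tested genes were higher without overlap. The TrkA table also had 1 (Nnat, higher; background 5.63% of 11899 genes). At P25 it was Mest alone (higher with Prx1-cre; background 0.652% of 12738 genes). At 9 weeks in the cold, Mest, Nnat, Bmp3 and Npr3 were higher with Prx1-cre without overlap, 4 of 5, where 12.2% of 13496 genes were. Between 22 C and 4 C in adult wild-type mice, Mest, Nnat and Npr3 were lower without overlap, 3 of 5, where 8.15% of 12118 genes were.

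**Figure D1:**
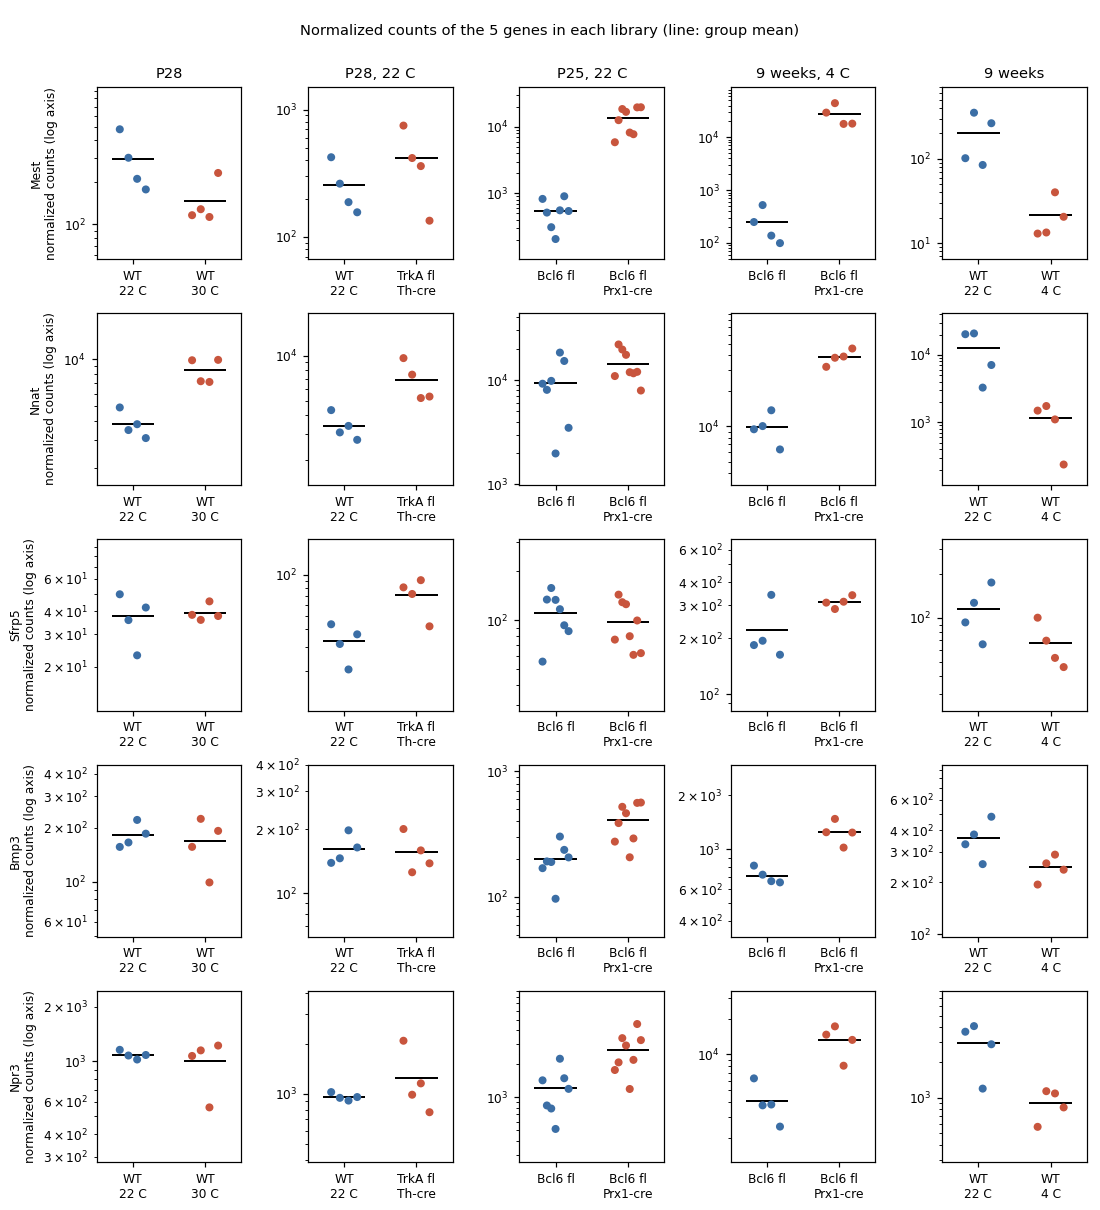
Normalized counts of Mest, Nnat, Sfrp5, Bmp3 and Npr3 (rows, log axes) in each library (points) of the 5 tables (columns), with the group mean as a line. Scales differ between panels; Mest lies at 204.6 to 901.8 without and 5872 to 19770 with Prx1-cre at P25.

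Mest was the gene of the 5 with the widest range. At P25, Bcl6-flox libraries held 204.6 to 901.8 normalized counts (median 540.5) and Bcl6-flox Prx1-cre libraries 5872 to 19770 (median 14740). The lowest Prx1-cre library thus stood above the highest Bcl6-flox library, and the log2 fold change was 4.65 ± 0.34 (SE, n = 7 and 8), a 25.1-fold difference that ranked 2 of 12738 genes. It was large both where Xist was low (4.93 on the log2 scale, 4 and 4 libraries) and where it was high (4.28, 3 and 4 libraries). Ucp1, which encodes the proton carrier of thermogenic fat, was lower with Prx1-cre in these libraries, 375.1 ± 234 against 6405 ± 3020 (SD, n = 8 and 7; limma adjusted p = 6.48e-06).

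In the 9-week cold table, the Bcl6-flox libraries had Mest at 248.3, 520.5, 137.3 and 98.99. The Bcl6-flox Prx1-cre libraries had 29410, 44400, 17950 and 18170. No library of one group came near the other, and the log2 fold change of 6.96 ± 0.51 (SE, n = 4 each), 124-fold, was the largest increase of the 13496 genes tested. Leaving out any 1 library gave 6.61 to 7.40. Bcl6-flox library 3, with the most muscle RNA, was neither the highest nor the lowest of its group.

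In adult wild-type mice, Mest was at 101.7, 351.5, 84.6 and 263.8 at 22 C. At 4 C it was at 13.04, 13.43, 40.14 and 20.6. Every library at 4 C was below every library at 22 C, with a log2 fold change of -3.04 ± 0.54 (SE, n = 4 each). The difference was -3.74 between the Xist-low and -2.34 between the Xist-high libraries, 2 a group. Ucp1 went the other way in the same libraries, from 289.4 ± 150 to 21150 ± 13400 (SD, n = 4 each; limma log2 fold change 6.17 ± 0.53, adjusted p = 0.00248).

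At P28, Mest was at 480.9, 300.7, 212.4 and 178.3 in wild-type libraries at 22 C. At 30 C it was at 116.6, 128.7, 113.2 and 234. 3 of the 30 C libraries lay below all at 22 C and library 4 lay within their range, for a log2 fold change of -0.94 ± 0.33 (SE, n = 4 each). Library 4 was also the only Xist-low library at 30 C, and Mest was higher in Xist-low libraries at 22 C too. Within Xist classes the differences were -0.70 both where it was low (2 and 1 libraries) and where it was high (2 and 3). Ucp1 was lower at 30 C in the same libraries, 108.8 ± 52.0 against 1758 ± 570 (SD, n = 4 each; limma adjusted p = 0.0017). So the warmer group at P28 had less of both Mest and Ucp1, and the 4 C group at 9 weeks less Mest and more Ucp1. The difference between the ages was not tested. With TrkA-flox Th-cre, Mest stood at 748.8, 416.3, 359.8 and 134 against 156 to 422.3 in the wild type. These groups overlapped, at 0.55 ± 0.47 on the log2 scale (SE, n = 4 each), leaving out 1 library gave 0.19 (without TrkA library 1) to 1.01 (without TrkA library 4), and with the skeletal muscle level as a covariate its sign turned (-0.22 ± 0.73). Ucp1 was lower in these TrkA libraries, 419.3 ± 202 against 1545 ± 497 (SD, n = 4 each; limma adjusted p = 0.0284), a call lost in 3 of 8 fits without 1 library and with the muscle covariate.

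Nnat had the highest level per kilobase of exon of the 5 genes. In wild-type libraries at P28 and 22 C it ran from 1700 to 2680 normalized counts per kilobase. Npr3 ran from 109 to 123, Mest from 45.2 to 122, Bmp3 from 21.2 to 30.0 and Sfrp5 from 12.1 to 26.1 on the same scale. Nnat was apart from all the others, Npr3 and Mest overlapped, and so did Bmp3 and Sfrp5.

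At P28, Nnat was at 4895, 3502, 3819 and 3109 normalized counts at 22 C. At 30 C it was at 9854, 7221, 7144 and 9911. All 4 libraries at 30 C were above all at 22 C, with a log2 fold change of 1.16 ± 0.17 (SE, n = 4 each) and 1.26 and 1.21 within the Xist-low and Xist-high libraries. In TrkA-flox Th-cre libraries Nnat was at 9614, 7452, 5198 and 5318, again above all 4 wild-type values in that table (2731 to 4316), at 1.00 ± 0.21 on the log2 scale (SE, n = 4 each). Both comparisons use the same 4 wild-type libraries. Muscle markers varied beside both: their mean log2 level was 4.63 to 5.49 at 22 C and 4.45 to 10.2 at 30 C, while wild-type libraries beside the TrkA group had 4.49 to 5.37 and those with Th-cre 6.00 to 8.57. None of 10 tested muscle markers passed at 30 C, and 3 of 11 passed in the TrkA table. With the muscle level as a covariate the difference was 0.98 ± 0.21 at 30 C and 0.57 ± 0.31 in the TrkA table (SE). At 30 C, library 3 had the lowest muscle level, 4.45, and the lowest Nnat, 7144, and library 4 the highest of both, 10.2 and 9911. Library 2 had more muscle RNA than library 1, 8.46 against 7.94, but less Nnat, 7221 against 9854. Macrophage markers were higher at 30 C, with 3 of 10 passing and a mean log2 level of 8.73 to 8.96 against 7.92 to 8.58. Schwann cell markers were also lower with TrkA-flox Th-cre, 2 of 8 passing the test and their mean log2 level 5.95 to 6.54 against 7.06 to 7.28, and macrophage markers higher, 5 of 9. The part of these cells in the Nnat difference was not tested.

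In the Bcl6 tables, Nnat differed more at 9 weeks than at P25, though the difference between tables was not tested. The P25 mice were at 22 C with both Xist classes, the 9-week mice at 4 C and all Xist-high. Age therefore cannot be told apart from temperature, Xist class or table. At P25 it ran from 1975 to 18350 (median 9221) without Prx1-cre and from 7934 to 21940 (median 11940) with it. The groups overlapped, and the log2 fold change was 0.83 ± 0.40 (SE, n = 7 and 8). It was 1.46 among Xist-low libraries, where 4 of 4 with Prx1-cre were above 4 of 4 without, and 0.11 among Xist-high libraries, where Bcl6-flox libraries F2 and F3 held 18350 and 15240. Those libraries were also the shallowest of the table, at 6051000 and 4995000 estimated reads. At 9 weeks and 4 C, Bcl6-flox libraries had 9426, 10030, 13670 and 6350. Prx1-cre libraries had 32010, 38230, 39160 and 45820. All 4 were above, by 2.02 ± 0.22 on the log2 scale (SE, n = 4 each).

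In adult wild-type mice, Nnat was at 20210, 20760, 3274 and 7074 at 22 C. At 4 C it was at 1494, 1746, 1106 and 237.7. The 22 C libraries split in level by Xist, with 20210 and 20760 in the Xist-low pair, and every 4 C library was below every 22 C library. The log2 fold change was -3.45 ± 0.78 (SE, n = 4 each), with -3.66 and -3.23 within the Xist-low and Xist-high pairs. Muscle markers split the 22 C libraries in the same way, at mean log2 levels of 1.77 and 1.89 in the Xist-low pair and 11.2 and 10.6 in the other. At 4 C, library 2 had the least muscle RNA (0.966) and the most Nnat, 1746 beside 1494 in library 1. With the muscle level as a covariate the log2 fold change was -3.315 ± 0.52 (SE). Schwann cell markers were lower at 4 C as well, 7.15 to 7.28 against 7.55 to 7.83, with 3 of 8 passing the test; their part in the Nnat difference was not tested.

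**Figure D2:**
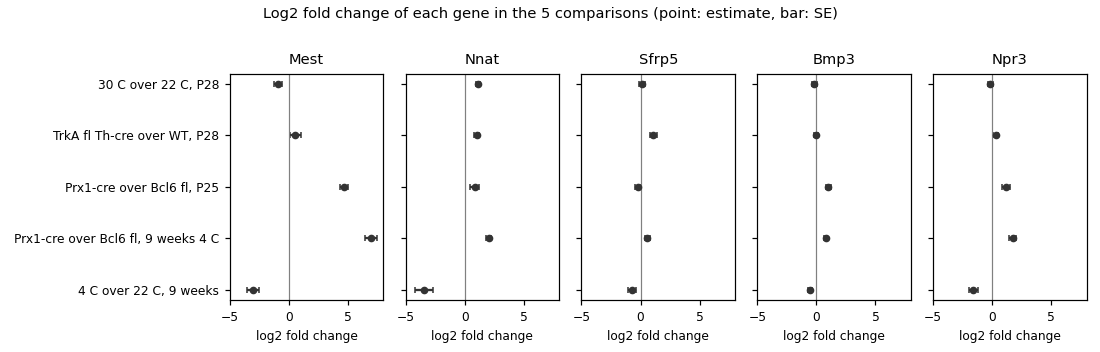
Log2 fold change on the log2(value + 1) scale (point) with its SE (bar) for each gene in the 5 comparisons. Mest spans -3.04 to 6.96 and Nnat -3.45 to 2.02, whereas Bmp3 spans -0.54 to 1.02; each comparison was fitted within its own table.

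Sfrp5 had the lowest mean per kilobase in the wild-type groups at P28, whereas in TrkA-flox Th-cre libraries it was at 22.2 to 48.2 per kilobase and Bmp3 at 17.0 to 27.0. At P28 it was at 49.53, 35.85, 23.06 and 41.97 in wild-type libraries at 22 C. At 30 C it was at 38.28, 35.94, 45.33 and 37.73. The 30 C values lay wholly within the 22 C range (0.11 ± 0.24 on the log2 scale; SE, n = 4 each). With TrkA-flox Th-cre it was at 81.21, 72.68, 91.66 and 42.18, against 20.43 to 43.67 in the wild type of that table. Libraries 1 to 3 were above every wild-type library and library 4 was within their range. The log2 fold change was 1.09 ± 0.29 (SE, n = 4 each), and 1.33 without library 4.

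At P25, Sfrp5 ran from 55.66 to 157.4 (median 116.7) without and from 61.23 to 143.3 (median 89.59) with Prx1-cre. The groups overlapped almost wholly, at -0.19 ± 0.24 on the log2 scale (SE, n = 7 and 8), in the same libraries in which Mest differed 25.1-fold. At 9 weeks and 4 C, Bcl6-flox libraries had 183.6, 193.7, 342 and 162.9. Prx1-cre libraries had 310.7, 287.1, 314.2 and 340.7. All 4 Prx1-cre libraries exceeded 3 of the Bcl6-flox libraries, and only Bcl6-flox library 3, the one rich in muscle RNA, was higher than they were. The log2 fold change was 0.56 ± 0.22 (SE, n = 4 each) and 0.80 without that library. Adult wild-type libraries had 65.82 to 175.8 at 22 C and 45.81 to 100.5 at 4 C, overlapping, at -0.74 ± 0.35 (SE, n = 4 each).

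Other genes of Wnt signalling, a list of ligands, receptors, antagonists and targets, gave few changes beside Sfrp5. None of 28, 25, 29 and 28 tested members passed limma's adjusted threshold in the P28 temperature, TrkA, P25 and 9-week temperature tables. At 9 weeks in the cold, 3 of 31 rose and 1 fell with Prx1-cre, 12.9% of the list, where 14.5% of all genes passed; the list's median log2 fold change was -0.16 and that of all genes -0.016. Nkd1, an intracellular Wnt inhibitor, rose from 163.1 ± 24.8 to 442.9 ± 102 (SD, n = 4 each; limma adjusted p = 0.00301). Fzd7, a Wnt receptor, fell from 830.3 ± 25.2 to 493.6 ± 46.1 (SD, n = 4 each; adjusted p = 0.0012). Both passed without any 1 library, whereas Fzd1 (limma adjusted p = 0.0257) and Fzd4 (0.0389) did not pass in 4 and 6 of 8 such fits. The relatives Sfrp1, Sfrp2 and Sfrp4 and the ligand Wnt5a passed in none of the 5 tables with all libraries in, the adjusted p running from 0.139 upward.

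Bmp3 kept a narrow range at P28. It was at 156.8, 166, 221.6 and 185.8 at 22 C and at 156.9, 224.7, 99.43 and 192.6 at 30 C. The groups overlapped, at -0.17 ± 0.23 on the log2 scale (SE, n = 4 each), and with the muscle level as a covariate the value was -0.67 ± 0.19. TrkA-flox Th-cre libraries ran from 125.5 to 200.1 and the wild type of that table from 138.9 to 197.3. That difference was -0.06 ± 0.16 (SE, n = 4 each), and -0.54 ± 0.19 with the muscle covariate.

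With Prx1-cre, Bmp3 was higher at both ages. At P25 it ran from 96.59 to 302.5 (median 191.7) without and from 206.7 to 564.8 (median 425.8) with Prx1-cre. Of 8 Prx1-cre libraries, 5 were above all 7 Bcl6-flox libraries, and the log2 fold change was 1.02 ± 0.25 (SE, n = 7 and 8), with 1.36 among Xist-low and 0.60 among Xist-high libraries. At 9 weeks and 4 C it was at 811.9, 723, 665.4 and 655 without Prx1-cre. With it, libraries had 1245, 1477, 1023 and 1240. All 4 were above, by 0.80 ± 0.12 on the log2 scale (SE, n = 4 each). In adult wild-type mice it was at 332.2, 378.5, 254.9 and 479.6 at 22 C and 194.1, 257.5, 289.3 and 236.6 at 4 C. These groups overlapped, at -0.54 ± 0.20 (SE, n = 4 each).

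Few other genes of BMP signalling passed the test. With Prx1-cre at 9 weeks, Chrdl1, a secreted BMP antagonist, rose from 1058 ± 199 to 2136 ± 423 (SD, n = 4 each; limma adjusted p = 0.00633). Bmpr1a, a type I BMP receptor, fell from 2502 ± 92.4 to 2009 ± 78.7 (SD, n = 4 each; adjusted p = 0.00817). In all 3 of 30 rose and 2 fell there, 16.7% of the list where 14.5% of all genes passed, with a list median of 0.029 against -0.016. Leaving out 1 library gave 1 to 7 higher and 1 to 4 lower. None of 28 passed at P25 or in the TrkA table. At 30 C against 22 C, 1 of 28 rose and 2 fell, 10.7% of the list where 4.45% of all genes passed, and none did with the muscle covariate or the replicate block. The 1 that rose, Inhbb, which encodes an activin subunit, did not pass in any of 8 fits without 1 library. Acvr1, another type I receptor, fell from 262.8 ± 42.6 to 153.3 ± 14.0 (SD, n = 4 each; limma adjusted p = 0.0146), a call lost without wild-type 22 C library 4. In adult wild-type mice 2 of 28 fell at 4 C, Acvrl1 and Chrdl1 (limma adjusted p = 0.0242 and 0.0374), and neither call was kept in most fits that left out 1 library (6 and 7 of 8 lost).

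Npr3 resembled Bmp3. At P28 it was at 1158, 1078, 1025 and 1085 at 22 C and at 1072, 1150, 560.3 and 1222 at 30 C. Library 3 at 30 C stood well below the other 3, and the groups overlapped, at -0.18 ± 0.22 on the log2 scale (SE, n = 4 each), 0.08 without that library and -0.71 ± 0.13 with the muscle covariate. That library had the lowest muscle level of all 8. With TrkA-flox Th-cre it was at 2079, 985.6, 1153 and 773.9, against 908.9 to 1022 in the wild type. The groups overlapped (0.28 ± 0.24; SE, n = 4 each); without library 1, the highest in both Npr3 and muscle level, the difference was 0.0024, and with the muscle covariate -0.50 ± 0.24.

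At P25, Npr3 ran from 516.3 to 2216 (median 1186) without and from 1183 to 4555 (median 2541) with Prx1-cre. Of 8 Prx1-cre libraries, 4 were above all Bcl6-flox libraries, with a log2 fold change of 1.17 ± 0.31 (SE, n = 7 and 8), 1.55 among Xist-low and 0.66 among Xist-high libraries. At 9 weeks and 4 C, Bcl6-flox libraries had 6293, 3731, 3792 and 2471. Prx1-cre libraries had 14690, 17250, 8045 and 13270, all of them above, by 1.74 ± 0.31 on the log2 scale (SE, n = 4 each). Macrophage markers also moved there, 9 of 10 higher with Prx1-cre (summed level 20420 to 35020 against 12240 to 15830 normalized counts); their part in these differences was not tested. In adult wild-type mice Npr3 was at 3642, 4065, 1200 and 2852 at 22 C. At 4 C it was at 568.8, 1141, 1092 and 831.2. Every 4 C library was below every 22 C library, the nearest pair being 1141 and 1200, at -1.61 ± 0.39 on the log2 scale (SE, n = 4 each). The difference was -2.25 within the Xist-low and -0.96 within the Xist-high pairs.

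Npr1, which encodes the signalling receptor for the same peptides, passed in none of the 5 comparisons (limma adjusted p from 0.243 to 0.993). At 9 weeks with Prx1-cre it stood at 2638 ± 274 against 2344 ± 161 (SD, n = 4 each), while Npr3 was 3.33-fold higher. Of 8 tested genes of natriuretic peptide signalling, Mme, which encodes the peptidase neprilysin, was the only one to pass in any table. It fell with Prx1-cre from 2770 ± 227 to 1798 ± 116 at 9 weeks (SD, n = 4 each; limma adjusted p = 0.00232) and from 1031 ± 97.3 to 692.6 ± 229 at P25 (SD, n = 7 and 8; adjusted p = 0.0482). The P25 call was lost in 13 of 15 fits that left out 1 library.

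Neighbours of Mest on chromosome 6 were compared, since imprinted genes lie in clusters. Klf14, an imprinted transcription factor gene 208 kb away, rose with Prx1-cre from 20.66 ± 22.3 to 155.3 ± 60.5 at P25 (SD, n = 7 and 8; limma log2 fold change 3.42 ± 0.55, adjusted p = 0.00172). At 9 weeks it rose from 26.04 ± 11.4 to 357.5 ± 189 (SD, n = 4 each; 3.68 ± 0.46, adjusted p = 0.00229). Cep41, a gene of the cilium 23.0 kb away, rose from 74.66 ± 14.6 to 150.4 ± 24.6 at P25 (SD, n = 7 and 8; limma adjusted p = 0.000321) and from 123.0 ± 17.5 to 400.2 ± 38.0 at 9 weeks (SD, n = 4 each; adjusted p = 0.000348). Each of these calls held without any 1 library. The list of neighbours of Mest and Nnat was drawn up with earlier results of these data known. Of 6 tested members, 2 rose with Prx1-cre at P25, 33.3% where 3.53% of all genes passed. At 9 weeks 3 of 6 rose, 50% where 14.5% of all genes passed. None fell with Prx1-cre. Ctnnbl1 and Src of that list passed in none of the 5 tables, and Tsga13 was below the filter on low values. Copg2, which overlaps the end of Mest and encodes a coat protein of secretory vesicles, passed in none of the 5 tables, and its log2 fold changes were 0.08 ± 0.08 at P25 and 0.08 ± 0.06 at 9 weeks (SE). At 4 C in adult wild-type mice Klf14 fell from 24.02 ± 11.3 to 4.142 ± 1.51 (SD, n = 4 each; limma adjusted p = 0.0436), a call that no fit without 1 library kept, the adjusted p ranging up from 0.0647. Blcap, whose intron holds Nnat, rose with Prx1-cre at 9 weeks from 3998 ± 311 to 6077 ± 201 (SD, n = 4 each; limma log2 fold change 0.61 ± 0.07, adjusted p = 0.0016) and did not pass in the other tables.

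**Figure D3:**
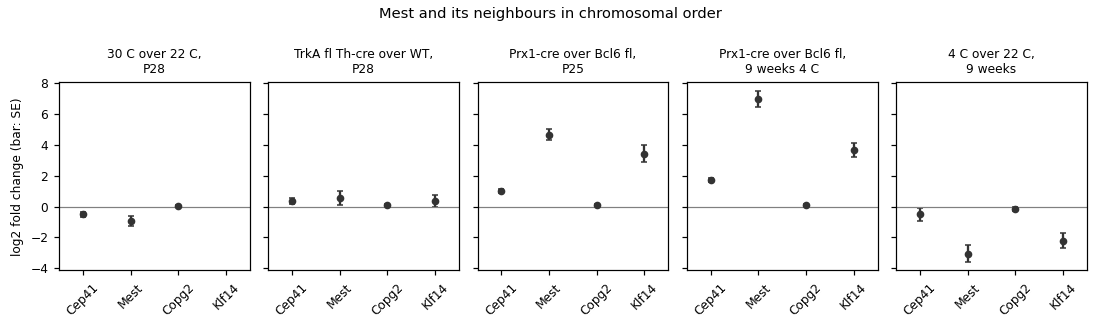
Log2 fold change (point) and SE (bar) of Cep41, Mest, Copg2 and Klf14, in chromosomal order, in the 5 comparisons. Copg2 stays near 0 in each panel while Mest, Klf14 and Cep41 are higher with Prx1-cre; Klf14 was below the filter on low values in the P28 temperature table and has no point there.

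Other imprinted genes rose beside Mest with Prx1-cre. Their list was drawn up with earlier results of these data known, so its share of calls is only a description. Its members are also not independent, since Peg3, Usp29 and Zim1 lie side by side on chromosome 7 and passed at both ages. Klf14 is counted among the neighbours of Mest as well. At P25, 8 of 17 tested members of a list without Mest and Nnat rose and none fell, 47.1% of the list where 3.53% of all genes passed; the list's median log2 fold change was 0.88 and that of all genes 0.0039. At 9 weeks 8 of 17 rose and none fell, where 14.5% of all genes passed, with a median of 0.51 against -0.016. Leaving out any 1 library gave 6 to 9 at P25 and 6 to 10 at 9 weeks. Usp29, Cdkn1c and Klf14 are examples that held in each such fit at both ages. Usp29, which starts close to Peg3 on chromosome 7, rose from 8.072 ± 3.47 to 98.88 ± 26.1 at P25 (SD, n = 7 and 8; limma adjusted p = 2.18e-06) and from 8.275 ± 2.98 to 200.1 ± 52.1 at 9 weeks (SD, n = 4 each; adjusted p = 0.000229). Cdkn1c, a cell cycle inhibitor, rose from 396.3 ± 65.2 to 1040 ± 190 at P25 (SD, n = 7 and 8; limma adjusted p = 1.27e-05) and from 543.3 ± 73.3 to 1628 ± 127 at 9 weeks (SD, n = 4 each; adjusted p = 0.000182). Dlk1, a transmembrane protein of preadipocytes, rose from 40.25 ± 14.4 to 300.2 ± 131 at P25 (SD, n = 7 and 8, limma adjusted p = 2.02e-05). It was not among those that passed at 9 weeks. Whether the tables differ was not tested, and age cannot be told apart from temperature or Xist class between them.

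Peg3 and its neighbour Zim1 passed in both P28 tables as well. Peg3, a zinc finger gene, rose from 428.6 ± 31.8 at 22 C to 583.7 ± 63.4 at 30 C and from 377.1 ± 26.3 to 750.4 ± 179 with TrkA-flox Th-cre (SD, n = 4 each; limma adjusted p = 0.0289 and 0.0174). These calls did not hold in 5 and 3 of 8 fits without 1 library, nor with the muscle covariate. Zim1 lost its call in 5 of 8 such fits in each table, with the replicate block at 30 C and with the muscle covariate in the TrkA table. In all, 3 of 14 imprinted genes rose at 30 C and 2 of 14 with TrkA-flox Th-cre, where 4.45% and 2.66% of all genes passed; the counts ran from 0 to 2 in both tables without 1 library. At 4 C in adult wild-type mice, Meg3 and Klf14 fell, 2 of 14, where 4.47% of all genes passed, and leaving out 1 library left at most 1. Among 18 genes of fat cell differentiation and size, 0 passed at P25, 0 at 30 C and 0 at 4 C in the wild type, where 3.53%, 4.45% and 4.47% of all genes did, and 1 (5.56%) passed in the TrkA table, where 2.66% did. That gene, Ghr, the growth hormone receptor, rose from 3617 ± 128 to 5698 ± 871 (SD, n = 4 each; limma adjusted p = 0.0257), a call lost in 5 of 8 fits without 1 library and with the muscle covariate. At 9 weeks in the cold, 2 of 18 rose (Cavin3 and Ehd2, which shape caveolae) and 2 fell (Cebpb and Hif1a), 22.2% of the list where 14.5% of all genes passed, and none of these 4 calls held without each single library.

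Libraries of 1 group also differed among themselves, and the P25 groups are large enough to ask which genes varied together. Within the 8 Prx1-cre libraries, Bmp3 and Npr3 correlated with Pearson r = 0.948 (exact permutation p = 0.000347, Benjamini-Hochberg adjusted over 20 tests 0.00694) and Spearman rho = 0.905. Without the 2 libraries farthest from the median of Bmp3, r was 0.851. Mest and Bmp3 gave r = 0.917 (exact permutation p = 0.00211, adjusted 0.0141), rho = 0.929 and, without the 2 farthest libraries, r = 0.99. Nnat and Sfrp5 gave r = 0.918 (exact permutation p = 0.00117, adjusted 0.0117), rho = 0.929 and r = 0.822 without 2. These 3 of 10 pairs passed by both coefficients, with adjusted p for rho of 0.0304, 0.0223 and 0.0223. Mest and Npr3, at r = 0.832 and rho = 0.81, did not (exact permutation p = 0.0109, adjusted 0.0544). As deviations from the mean of each column code (M or F), the passing pairs had r = 0.956, 0.925 and 0.835.

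Within the 7 Bcl6-flox libraries, no pair passed after adjustment and 3 had an unadjusted exact permutation p under 0.05. Bmp3 and Npr3 gave r = 0.86 and rho = 0.786 (exact permutation p = 0.0137, adjusted 0.0548). Here r was 0.275 without the 2 farthest libraries, whose removal also narrows the range of Bmp3. Nnat and Bmp3 gave r = 0.827 and rho = 0.679 (exact permutation p = 0.0179, adjusted 0.0595), and 0.925 without 2. Mest and Npr3 gave r = 0.795 and rho = 0.893 (exact permutation p = 0.0294, adjusted 0.0839), and 0.265 without 2. Sfrp5 and Mest were opposed there, at r = -0.717 and rho = -0.714 (exact permutation p = 0.0712, adjusted 0.158). Whether the pairs differ between genotypes was not tested.

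**Figure D4:**
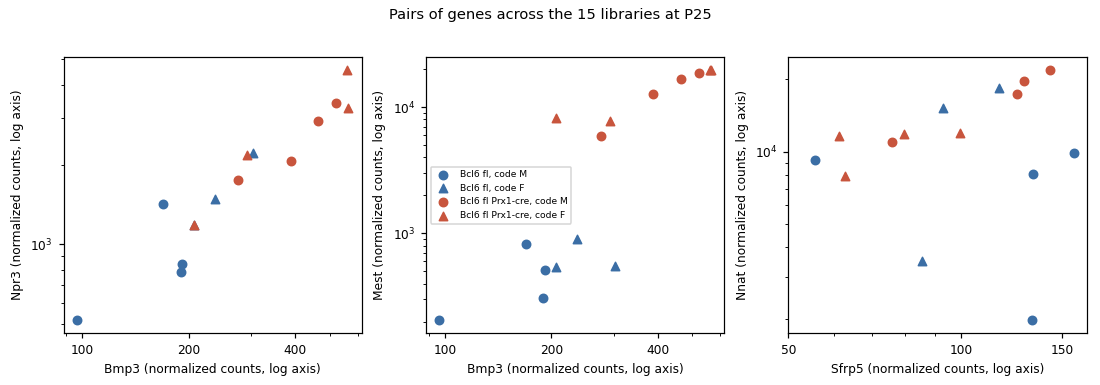
Normalized counts (log axes) of Npr3 against Bmp3, Mest against Bmp3 and Nnat against Sfrp5 in the 15 libraries at P25; colour gives the genotype and shape the column code (M, Xist-low; F, Xist-high). Among the 8 Prx1-cre libraries Npr3 and Mest are higher where Bmp3 is higher (r = 0.948 and 0.917).

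The 28 libraries of the 7 groups of 4 offer a look at the same pairs in other libraries. There, with each group's mean removed and values permuted within groups 100000 times, Bmp3 and Npr3 again went together (r = 0.751, permutation p = 0.00015, adjusted over 10 pairs 0.0015; rho = 0.707; r = 0.652 without the 2 libraries farthest from the median). In single tables r of these deviations was 0.8, 0.65, 0.9 and 0.74, the P28 tables sharing 4 libraries. Neither Xist class nor muscle level was removed. At 30 C, library 3 was lowest in Bmp3 (99.43), Npr3 (560.3) and muscle level (4.45). TrkA-flox Th-cre library 1 was highest of its group in each (200.1, 2079 and 8.57). At P28 and 22 C, library 3 had the highest muscle level (5.49) and Bmp3 (221.6) but the lowest Npr3 (1025). The part of muscle RNA in this pairing was not tested. Mest and Npr3 gave r = 0.613 (permutation p = 0.0052, adjusted 0.026) and rho = 0.527 (adjusted 0.053), with r = 0.639 without 2. Nnat and Sfrp5 gave r = 0.456 (permutation p = 0.092, adjusted 0.18) and rho = 0.365, and 0.223 without 2. Pairing of Mest with Bmp3 gave r = 0.472 and rho = 0.493 (permutation p = 0.015, adjusted 0.051), and 0.501 without 2.

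Among all 12737 other tested genes, Npr3 was the most like Bmp3 and Bmp3 the most like Npr3, by r of deviations from the group mean over the 15 libraries at P25 (0.903, as a description). Next for Npr3 came Paqr7 (0.896) and Klf14 (0.892), and for Bmp3 Rtn4rl1 (0.892) and Paqr7 (0.883). For Mest the genes most alike were Kcng2 (0.894), Tecpr1 (0.842) and Mcam (0.84), with Npr3 at rank 6 (0.813) and Bmp3 at rank 9 (0.797). Of these, Kcng2 had r = -0.16 with Mest in the 28 other libraries, Tecpr1 0.036 and Mcam 0.23. Nnat was most like Fancc (0.872), 5430402O13Rik (0.87) and 4930570G19Rik (0.864), and only the last kept a high value in the other libraries (0.75). Sfrp5 was most like Nfkbib (0.89), Dus3l (0.88) and Cc2d1b (0.865), at 0.2, -0.24 and -0.23 in the others. These values share libraries and depth.

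Marker levels were set beside these pairs, with 130 relations of the 5 genes to 13 measures in the 2 groups; none passed after adjustment and 7 had an unadjusted exact permutation p under 0.05. In Prx1-cre libraries Schwann cell markers (8 genes, mean log2 level 7.83 to 8.93) went with Nnat at r = 0.912 and rho = 0.857 (exact permutation p = 0.00164, adjusted 0.213; r = 0.786 without 2) and with Sfrp5 at r = 0.869 and rho = 0.881 (exact permutation p = 0.0099, adjusted 0.576; r = 0.77 without 2). Fat cell markers went with Nnat at r = 0.752 and rho = 0.81 (exact permutation p = 0.0371, adjusted 0.644; r = 0.601 without 2) and with Sfrp5 at r = 0.782 and rho = 0.714 (exact permutation p = 0.0334, adjusted 0.644; r = 0.724 without 2). Progenitor markers went against Nnat, at r = -0.775 and rho = -0.619 (exact permutation p = 0.0336, adjusted 0.644; r = -0.646 without 2). The part of these cells in the pairing of Nnat with Sfrp5 was not tested. With Mest, fat cell markers gave r = 0.481 and rho = 0.214 (exact permutation p = 0.217, adjusted 0.723). With Bmp3 they gave r = 0.521 and rho = 0.286 (exact permutation p = 0.177, adjusted 0.699). With Npr3 they gave r = 0.585 and rho = 0.548 (exact permutation p = 0.126, adjusted 0.699). Without the 2 farthest libraries, r was 0.945 with Mest, 0.935 with Bmp3 and 0.81 with Npr3. For Bmp3 and Npr3 in the same group, r with estimated reads was -0.0143 and -0.233 and rho 0.0476 and -0.214 (exact permutation p of r = 0.974 and 0.572, adjusted 0.98 and 0.946). Bmp3 and the muscle level gave r = -0.284 and rho = -0.333 (exact permutation p of r = 0.487, adjusted 0.895), and r = -0.804 without the 2 farthest libraries. In Bcl6-flox libraries smooth muscle and pericyte markers went against Bmp3, at r = -0.904 and rho = -0.857, and r = -0.855 without 2. The exact permutation p of r was 0.0133, adjusted 0.576. Mammary epithelium markers went with Npr3 there, at r = 0.843 and rho = 0.857, and r = 0.609 without 2. Its exact permutation p was 0.0188, adjusted 0.613. The part of these cells in the pairing of Bmp3 with Npr3 was not tested.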

How the data were processed

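RNA of flash-frozen inguinal fat was made into libraries with a stranded mRNA kit, per the labels' protocols. The authors deposited 5 tables of signal, in the form of normalized counts for each gene. The authors used kallisto, DESeq2 and mm10, per the submitters' processing notes; their versions and roles and the annotation were not given in the sources used here. Low values were not whole multiples of 1 read for nearly all genes (5.86 to 68.2% within 0.02), and no count model was used. The 4 wild-type libraries shared by the P28 tables differ in scale by 1.129 to 1.144.

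Each table was fitted alone with limma 3.58.1 (R 4.3.3, mean-variance trend) on log2(value + 1), for genes that reached 10 in a number of libraries equal to the smaller group, with Benjamini-Hochberg adjustment over the tested genes and a threshold of 0.05. On this scale fold changes of low genes are understated. On simulated data 2-fold changes were recovered for 62, 60, 92, 56 and 56% of changed genes in the P28 temperature, TrkA, P25, 9-week Bcl6 and 9-week temperature tables. The simulation gave all genes the same dispersion and no sex or muscle differences between libraries. Genes that vary more may be recovered less often. The within-group SD of Nnat, for example, was 1.3 on the log2 scale in the 9-week temperature table. Since the labels name no animals, every p-value refers to variation among the sequenced samples, which may be technical. Overlap of groups, values within Xist classes (split at 100) and correlations were computed with Python 3.11.15, numpy 2.4.6 and scipy 1.17.1; figures were drawn with matplotlib 3.10.9. Columns of the P25 table carry codes (M1, F2) that match no sample title and are used as library names. Replicate numbers elsewhere were not taken as pairs in the main fits, since in no table did all 4 same-number correlations exceed 0.1. In the 9-week temperature table they were -0.262, 0.768, 0.501 and 0.508 for numbers 1 to 4. There, numbers 1 and 2 were Xist-low and 3 and 4 Xist-high in both groups, so a pairing in that table stays possible.

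The 5 genes and the gene lists were chosen with earlier results of these data known. Other genes were named by rule: up to 4 members per list and comparison with the smallest p past the threshold, the near relatives Sfrp1, Sfrp2, Sfrp4, Wnt5a, Npr1, Blcap and Copg2, Bcl6 as a targeted gene and Ucp1, and the 3 genes most like each of the 5. The check of the other targeted gene is not reported here. Cep41 followed the list rule. Gdf10, Npr2, Fzd6, Lrp6, Notum, Axin2, Ndn, Peg10, Peg13, Cebpa and Fabp4 were not analysed here. Alternatives were other scalings, filters, pseudocounts of 0.5 and 5, covariates for the muscle level and Xist, a replicate block, and each library left out; correlations in the 28 libraries, with sex codes removed and with markers were added after seeing the data.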

Additional observations from a re-analysis of the deposited data

Results flagged for a closer look

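Npr3 in wild-type libraries at P28 and 30 C held 1 library far from the others: library 3 had 560.3 normalized counts and the other 3 had 1072 to 1222. The gap to its nearest neighbour was 0.832 of the group's whole range, just past the limit for 4 libraries. Of 45 sets of 1 gene in 1 group, 1 passed that limit, and chance passes about 1 in 20. The same library was also lowest of its group in Bmp3 (99.43) and in skeletal muscle markers.

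Mest differed in opposite directions with cooler housing at the 2 ages. From 30 C to 22 C at P28 the log2 difference was 0.941, and from 22 C to 4 C at 9 weeks it was -3.04, a difference of -3.98 between them. The SE was 0.33 at P28 and 0.54 at 9 weeks. At P28 the groups overlapped, with 30 C library 4 (234) above 22 C libraries 3 and 4 (212.4 and 178.3). At 9 weeks they did not overlap. In both comparisons no library crossed the mean of the opposite group. The difference between ages was not tested, and the 2 comparisons also differ in temperature range.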

How the results depend on the processing

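Of 213 log2 fold changes of the 5 genes under settings other than leaving out a library, 207 moved by less than 1 SD of the replicates, and so did all 235 with 1 library left out. The 6 that moved used the skeletal muscle covariate: at 30 C Bmp3 was -0.6702 and Npr3 -0.7088, with TrkA-flox Th-cre Nnat was 0.5736, Bmp3 -0.5421 and Npr3 -0.5034, and at 9 weeks with Prx1-cre Sfrp5 was 0.9565. Counts of changed genes moved more. With the muscle covariate they were 81 at 30 C (547 without), 20 in the TrkA table (317 without) and 1899 in the 9-week temperature table (542 without). With the replicate block, which pairs libraries by number alone, they were 236 at 30 C, 1171 in the 9-week Bcl6 table and 1666 in the 9-week temperature table, against 547, 1953 and 542; P25 columns carry no sample number, so no block was fitted there. The 9-week temperature table gave 356 with no filter and 2226 with the Xist covariate, which could not be fitted in the 9-week Bcl6 table, where Xist was high in all 8 libraries. Leaving out 1 library gave 176 to 714 at 30 C, 93 to 870 in the TrkA table, 288 to 666 at P25, 1055 to 3548 in the 9-week Bcl6 table and 36 to 356 in the 9-week temperature table, and the cause was not tested. Upper-quartile scaling in the last table made 35.4% of the changed genes higher, against 45.4%.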
